A study of Mus musculus with 3 samples.

Results

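The adipogenic transcription factors examined here are 9 protein-coding genes, Pparg, Cebpa, Cebpb, Cebpd, Ebf1, Ebf2, Zfp423, Zfp467 and Klf15, chosen by name out of the 56748 genes of the count table. They were measured by bulk RNA sequencing in fibroblasts from visceral fat of wild-type (WT) mice fed a high-fat diet, obtained by magnetic sorting of the stromal vascular fraction, which excludes mature fat cells, as cells lacking CD45, CD31 and Ter119 (leukocyte, endothelial and erythroid proteins). The groups were vehicle, recombinant mouse oncostatin M (Osm, an interleukin 6 family cytokine) at 3 ng/mL for 24 h, and human TGF-beta1 (recombinant transforming growth factor beta 1, an inducer of matrix genes in fibroblasts) at 3 ng/mL for 24 h. The labels give no time for vehicle, no age or sex of the mice, and neither how many animals were pooled nor how long the cells were cultured. There was 1 library per group, so no difference has a replicate check or a p-value. Each interval given is an exact 95% one for counting error alone, and it compares libraries, not treatments.

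Fat cells arise from fibroblast-like precursors through a cascade of transcription factors. Ebf1, Ebf2 and Zfp423 are known to mark or commit the precursors, Cebpb and Cebpd come on early when differentiation is induced, and they in turn switch on Pparg and Cebpa, which maintain each other and drive the genes of the mature adipocyte. Zfp467 is a zinc finger protein that favours the fat over the bone lineage, and Klf15 is a Kruppel-like factor that acts late, together with C/EBP proteins.

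The libraries held 18336068 (vehicle), 17319872 (Osm) and 18533741 (TGF-beta1) counted reads. Levels are given as CPM, read counts relative to the scaled size of the library, and genes that reached 1 CPM in any library were examined for a 2-fold difference (the tested genes). A gene passed the 2-fold rule if its level differed at least 2-fold between libraries and the counting interval of the ratio excluded 1. All 9 members reached 1 CPM, as did 13712 genes in all, 952 of which are protein-coding genes with a transcription factor family in the authors' deposited table. All 7 fibroblast markers were detected, with Pdgfra at 1129, 1122 and 697.5 CPM (values in a row are always in the order vehicle, Osm, TGF-beta1), and 6 of the 7 were lower with TGF-beta1 than with vehicle, Dcn by 2.41-fold (2.36 to 2.45). Col1a1 was 1.88-fold higher with TGF-beta1 (1.86 to 1.89), and the list summed to 15595, 16052 and 16939 CPM. Of the 8 markers of mature adipocytes, Plin1 and Lep had no read in any library and the list summed to 0.652, 0.691 and 0.488 CPM, where a count of 0 allows up to 0.163, 0.173 and 0.163 CPM. Leukocyte markers summed to 18.4, 15.8 and 14.8 CPM, with Itgam and Cd3e among those at 0 in every library and Ptprc, the gene of CD45, at 0, 2 and 0 reads. Most of the leukocyte sum was Cd68 at 8.91, 6.68 and 3.69 CPM and Csf1r at 8.48, 8.41 and 10.2 CPM. Cd68 was 2.42-fold lower with TGF-beta1 than with vehicle (1.81 to 3.25). The 4 erythroid markers were at 0. The 6 endothelial markers summed to 56.6, 45.6 and 37.9 CPM, of which Tek made up 48.5, 38.9 and 34.4 CPM, and Cdh5 and Vwf were each at least 2-fold lower with TGF-beta1. Pecam1, the gene of CD31, was at 0.109, 0.173 and 0.271 CPM. Mesothelial markers summed to 41.2, 40.4 and 49.8 CPM, mostly Wt1 at 37.1, 36.1 and 43.4 CPM. Upk1b and Krt19 of that list were each at least 2-fold higher with TGF-beta1, from 0.870 to 1.79 CPM and from 0.652 to 1.52 CPM. Mural cell markers summed to 37.2, 37.9 and 94.02 CPM, the last mostly Cspg4, which was at 8.53, 7.38 and 74.9 CPM. Cspg4 was 8.77-fold higher with TGF-beta1 than with vehicle (7.43 to 10.4). Of the 4 tested mural markers, 3 were lower with TGF-beta1, Abcc9 by 2.47-fold (1.62 to 3.85).

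With TGF-beta1, Pparg was 2.31-fold below its vehicle level, Zfp467, Cebpa, Klf15 and Ebf1 were lower by smaller factors, Cebpb, Cebpd and Ebf2 lay within 1.1-fold of vehicle, and Zfp423 was higher. With Osm, Cebpa, Cebpb and Cebpd were higher and Pparg, Ebf1 and Ebf2 lower, each by less than 1.5-fold and with a counting interval that excluded 1, while the intervals of Zfp423, Zfp467 and Klf15 held 1. Among all tested genes this interval lay above 1 for 10.9% and below 1 for 10.6%. Pparg alone passed the rule of a 2-fold difference, in 1 of the 3 comparisons. In bulk RNA, fewer cells that express a gene and less RNA per cell cannot be told apart.

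**Figure D1:**
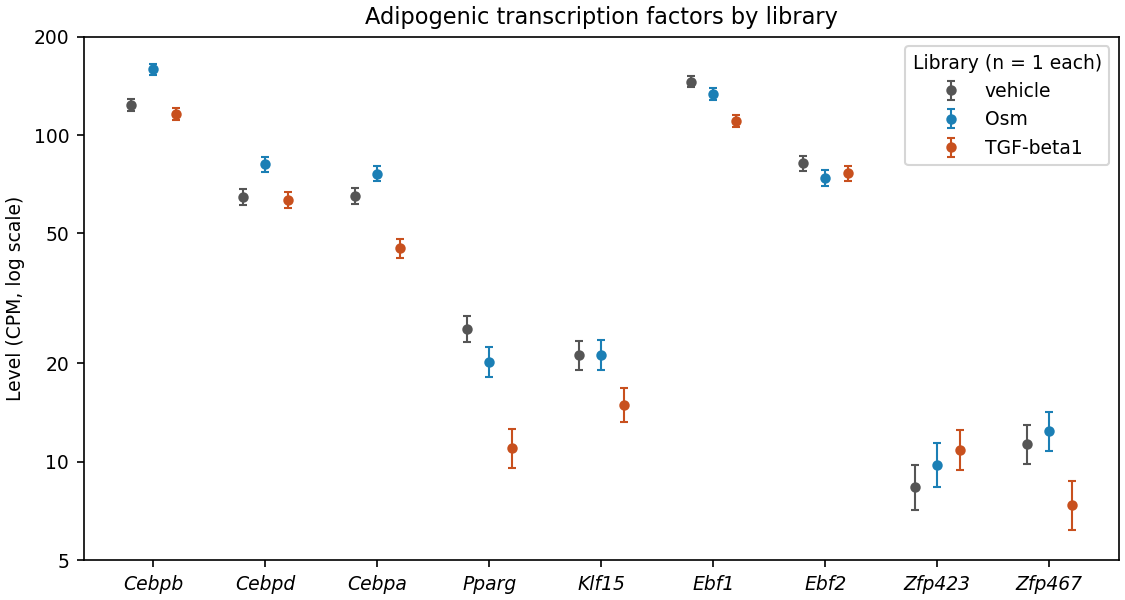
Level of each of the 9 genes in CPM (log scale), 1 point per library, with bars for the exact 95% Poisson interval of the count. All members except Ebf2 and Zfp423 have their lowest point in the TGF-beta1 library, Pparg at 11.0 CPM, and the 3 C/EBP genes their highest in the Osm library.

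Pparg encodes the nuclear receptor that binds fatty acid ligands and is required for fat cell formation. The gene (ENSMUSG00000000440) lies on the plus strand of chromosome 6 at 115337912 to 115467360 in build mm39. It was at 25.5 CPM in the vehicle library (469 reads, interval 23.2 to 27.9), 20.2 CPM after Osm (351 reads, 18.2 to 22.5) and 11.0 CPM after TGF-beta1 (203 reads, 9.55 to 12.6). Vehicle was highest and TGF-beta1 lowest, and no pair of these intervals overlapped. How many of all tested genes have intervals that lie apart in this way was not counted, here or for Cebpa and Ebf1 below. Intervals lie apart more readily for a gene with many reads. Pparg was 2.31-fold lower with TGF-beta1 than with vehicle (1.96 to 2.74) and 1.26-fold lower with Osm than with vehicle (1.09 to 1.45). Its level with Osm was 1.84 times that with TGF-beta1 (1.54 to 2.19), below the 2-fold rule although the interval reaches past it. Among tested genes, 3.43% had a TGF-beta1 over vehicle ratio at least as low as that of Pparg, and 1.16% of the 952 transcription factor genes did. Of the 9358 genes that reached 10 CPM in any library, 1.68% did. The summed endothelial markers and the summed leukocyte markers had the same order of libraries as Pparg. Pecam1 had the opposite order, and Csf1r was highest with TGF-beta1. Of the 7 fibroblast markers, 6 were lower with TGF-beta1, but Col1a1 was higher, and their sum was lowest with vehicle. The part of these cell types in the Pparg difference was not tested.

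Pparg has several transcription starts, and the counts add all of them together. RefSeq promoter windows (build GRCm38.p6) were found for 7 of the 9 members, 11 windows in all, and Cebpd and Ebf2 were not among them. The 250 bases before each start were searched on both strands for TTGCNNAA (a C/EBP core), TTCNNNGAA (Stat), CAGAC (Smad), TCCC and GGGA with any 2 bases between them (Ebf), and AGGTCA given 2 times with any 1 base between (Ppar-Rxr). N is any base, and no matches of different motifs overlapped in these windows. Of the 3 Pparg windows, only the one furthest downstream held a match. That window and the other 3 windows with any match are printed here because they held a match. With TGF-beta1, Pparg, Zfp467 and Klf15 were lower and Zfp423 higher. Cebpa and Ebf1 were also lower, but their windows held no match. Capitals mark C/EBP and Smad matches, and each sequence runs 5' to 3' on the strand of its gene.
Pparg, chr6:115421816-115422065, plus strand: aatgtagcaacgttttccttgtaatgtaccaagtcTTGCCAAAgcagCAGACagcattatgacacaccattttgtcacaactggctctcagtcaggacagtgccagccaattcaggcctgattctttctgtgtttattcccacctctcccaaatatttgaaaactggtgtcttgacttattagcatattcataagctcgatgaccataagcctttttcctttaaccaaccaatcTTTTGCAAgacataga
Zfp423, chr8:87959596-87959845, minus strand: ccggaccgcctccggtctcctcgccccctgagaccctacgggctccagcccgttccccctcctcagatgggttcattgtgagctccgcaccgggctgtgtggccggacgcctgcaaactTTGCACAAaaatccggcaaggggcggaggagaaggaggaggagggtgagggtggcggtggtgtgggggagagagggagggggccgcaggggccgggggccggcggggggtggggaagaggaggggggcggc
Zfp467, chr6:48445091-48445340, minus strand: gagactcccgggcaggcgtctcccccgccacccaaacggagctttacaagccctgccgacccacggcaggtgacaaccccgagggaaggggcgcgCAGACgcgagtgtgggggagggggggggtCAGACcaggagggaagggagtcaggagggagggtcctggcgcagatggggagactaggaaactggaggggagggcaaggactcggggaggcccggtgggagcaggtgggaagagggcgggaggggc
Klf15, chr6:90462326-90462575, plus strand: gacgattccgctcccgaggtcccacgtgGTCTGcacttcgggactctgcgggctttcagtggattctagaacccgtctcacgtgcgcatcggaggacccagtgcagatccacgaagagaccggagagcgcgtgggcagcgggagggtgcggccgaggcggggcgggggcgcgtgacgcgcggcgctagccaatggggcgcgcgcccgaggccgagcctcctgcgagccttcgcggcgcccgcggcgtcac

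The Pparg window held 2 C/EBP matches, at -215 to -208 and at -16 to -9 relative to the start, and 1 Smad match, at -203 to -199. Zfp423 held 1 C/EBP match at -131 to -124, Zfp467 held 2 Smad matches and Klf15 held 1. A C/EBP match was present in 9.56% of all 32851 promoter windows of the same length and 2 or more in 0.572%. A Smad match was present in 42.2% of them and 2 or more in 11.7%. These shares are for a single window, while 11 windows were searched for 5 motifs, and are not matched for base content. G and C made up 40.8% of the printed Pparg window, 71.6% of that of Zfp423, 70.4% of Zfp467 and 72% of Klf15. The Stat, Ebf and Ppar-Rxr letters, found in 7.02%, 0.779% and 0.0335% of all windows, were in none of the 11. The windows of Cebpa, Cebpb and Ebf1 held none of the 5 motifs. An Ebf1 window lies wholly within Ebf1 exons (all 250 bases), so it is also transcribed sequence of that gene. Exons of Pparg cover 193 and 57 bases of the Pparg windows without a match. A match describes letters and not a bound site, and these files hold no measure of binding.

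Cebpa, the partner of Pparg late in the cascade, encodes a leucine zipper factor that sustains Pparg and adipocyte genes (ENSMUSG00000034957, plus strand, chromosome 7, 34818718 to 34821353). Its level was 65.3 CPM in the vehicle library (61.6 to 69.1), 76.2 CPM after Osm (72.1 to 80.4) and 45.0 CPM after TGF-beta1 (42.0 to 48.1). Osm was highest and TGF-beta1 lowest, again with no overlap of intervals. Cebpa was 1.45-fold lower with TGF-beta1 than with vehicle (1.33 to 1.59) and 1.17-fold higher with Osm (1.08 to 1.26). Between the treated libraries, Cebpa was 1.69-fold higher with Osm (1.55 to 1.85). With Osm, then, Cebpa and Pparg lay on opposite sides of vehicle, and with TGF-beta1 both lay below it.

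Cebpb, which encodes the C/EBP factor that responds first to adipogenic and inflammatory signals (ENSMUSG00000056501, plus strand, chromosome 2, 167530835 to 167532338), was at 123.6, 159.0 and 116.2 CPM. The Osm library stood above vehicle and TGF-beta1, whose intervals of 118.6 to 128.8 and 111.3 to 121.2 CPM overlapped. Osm over vehicle was 1.29-fold higher (1.22 to 1.36), and TGF-beta1 was 1.06-fold lower than vehicle, with an interval that only just excludes 1 (1.002 to 1.13).

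Cebpd, its early partner (ENSMUSG00000071637, plus strand, chromosome 16, 15705150 to 15708895), was at 64.7, 81.5 and 63.4 CPM. Here too only Osm stood apart, 1.26-fold above vehicle (1.16 to 1.36), while TGF-beta1 was 1.02-fold lower (0.941 to 1.11), within counting error. Ratios of Osm to vehicle at least as high as those of Cebpb, Cebpd and Cebpa were found in 7.81%, 8.62% and 13.7% of the tested genes, and in 1.63%, 2.13% and 5.77% of the 9358 genes that reached 10 CPM.

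Both early C/EBP genes overlap a gene on the opposite strand, and the sources used here do not say whether reads were counted by strand. Exons of Peds1 (named Tmem189 in the GENCODE M21 annotation) cover 20.7% of the exonic bases of Cebpb and exons of Spidr 15.0% of those of Cebpd. Peds1 was at 44.9, 45.8 and 43.0 CPM, within 1.1-fold of each other. Spidr was at 24.8, 22.4 and 20.9 CPM. Reads within the overlapped bases cannot be separated in these counts, and their part in the values of Cebpb and Cebpd was not tested. The overlapping noncoding gene of Cebpa, Gm45091, was at 0.543, 0.807 and 0.543 CPM. None of the 50-base windows of the 3 C/EBP transcripts occurs in a transcript of another gene.

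Per unit of gene length, in the authors' deposited FPKM values, Cebpb was the most abundant of the members in every library and Cebpa the second, with levels of 82.2 and 24.8 FPKM with vehicle. Cebpb ranked 5th, 5th and 7th of 1522 genes with a transcription factor family, and Cebpa 55th, 43rd and 88th. The Cebpb level was 3.32 times the Cebpa level with vehicle, 3.66 times with Osm and 4.53 times with TGF-beta1. Of the FPKM summed over Cebpa, Cebpb and Cebpd, Cebpa made up 19.9%, 18.5% and 15.3% in the same order. Cebpd followed, at 17.3 FPKM with vehicle against 24.8 FPKM for Cebpa, but with TGF-beta1 the 2 had overlapping intervals (15.95 to 18.3 FPKM for Cebpa, 16.004 to 17.96 FPKM for Cebpd). The order of the other members per length with vehicle was Ebf1 (14.9 FPKM), Ebf2 (11.8), Pparg (8.64), Klf15 (7.60), Zfp467 (2.66) and Zfp423 (1.49), and of these neighbours only Pparg and Klf15 had overlapping intervals. With TGF-beta1 the Pparg level of 3.74 FPKM (3.24 to 4.29) was under that of Klf15 at 5.36 FPKM (4.74 to 6.03), while Ebf1 and Ebf2, and Zfp423 and Zfp467, overlapped. Pparg ranked 211th, 273rd and 427th among the 1522 genes.

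**Figure D2:**
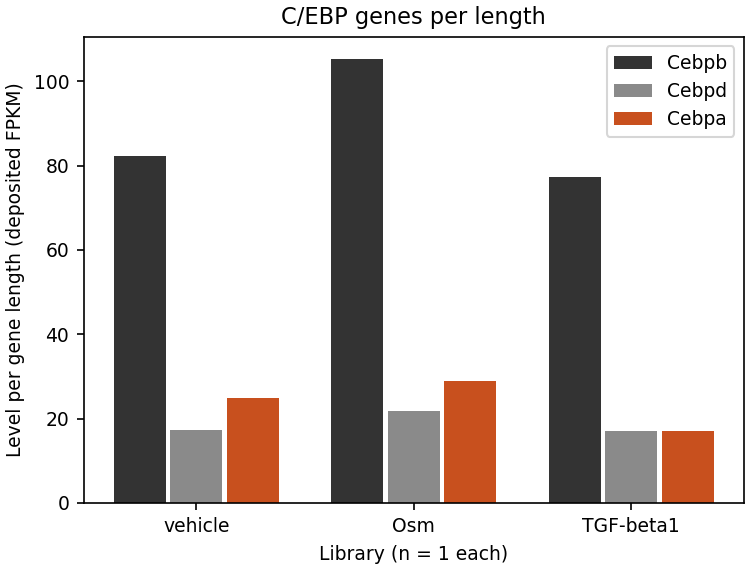
Level per gene length (deposited FPKM, axis from 0) of Cebpb, Cebpd and Cebpa in each library, 1 bar per gene and library, with no error bars because there was 1 library per group. Cebpb is at 82.2, 105.3 and 77.4 FPKM, and Cebpa is beside Cebpd in the TGF-beta1 library, 17.1 against 16.96 FPKM.

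Ebf1 and Ebf2 encode early B cell factors, which open chromatin in fat cell precursors and, for Ebf2, mark the brown and beige lineage. Ebf1 (ENSMUSG00000057098, plus strand, chromosome 11, 44508144 to 44898918) was at 145.8 CPM in the vehicle library (140.3 to 151.4), 133.6 CPM after Osm (128.2 to 139.1) and 110.3 CPM after TGF-beta1 (105.6 to 115.2). The 3 levels were ordered with no overlap, and TGF-beta1 was 1.32-fold below vehicle (1.25 to 1.40) and Osm 1.09-fold below (1.03 to 1.15). Ebf2 (ENSMUSG00000022053, plus strand, chromosome 14, 67470741 to 67668367) was at 81.9, 73.9 and 76.4 CPM, and every pair of its intervals overlapped. An antisense noncoding gene within it, Gm10860, was at 0.326, 1.04 and 0.434 CPM. Ebf2 was 1.07-fold lower with TGF-beta1 (0.996 to 1.15) and 1.11-fold lower with Osm (1.03 to 1.19). The paralog genes thus had ratios of different size with TGF-beta1, whose intervals do not overlap.

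Klf15 (ENSMUSG00000030087, plus strand, chromosome 6, 90439558 to 90452220) encodes the late-acting Kruppel-like factor and was at 21.2, 21.3 and 14.9 CPM. Vehicle and Osm were 1.00-fold apart with an interval of 0.868 to 1.16, and TGF-beta1 stood below both, 1.42-fold under vehicle (1.21 to 1.66). The vehicle to Osm ratio was so close to 1 that its sign turned under another scaling, from 0.0047 to -0.0014 on the log2 scale with DESeq2 size factors.

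The zinc finger genes Zfp467 and Zfp423 were the members with the fewest reads and lay on opposite sides of vehicle with TGF-beta1. Zfp467 (ENSMUSG00000068551, minus strand, chromosome 6, 48404631 to 48422759) was at 11.3, 12.4 and 7.38 CPM, from 208, 215 and 136 reads. It was 1.53-fold lower with TGF-beta1 than with vehicle (1.23 to 1.92) and 1.10-fold higher with Osm, within counting error (0.902 to 1.33). Zfp423, which encodes a cofactor of BMP signalling that commits cells to the fat lineage (ENSMUSG00000045333, minus strand, chromosome 8, 88388438 to 88686223), was at 8.37, 9.80 and 10.9 CPM, from 154, 170 and 201 reads. It was 1.30-fold higher with TGF-beta1 (1.05 to 1.62) and 1.17-fold higher with Osm, within counting error (0.936 to 1.47). It was the one member above vehicle in the TGF-beta1 library.

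**Figure D3:**
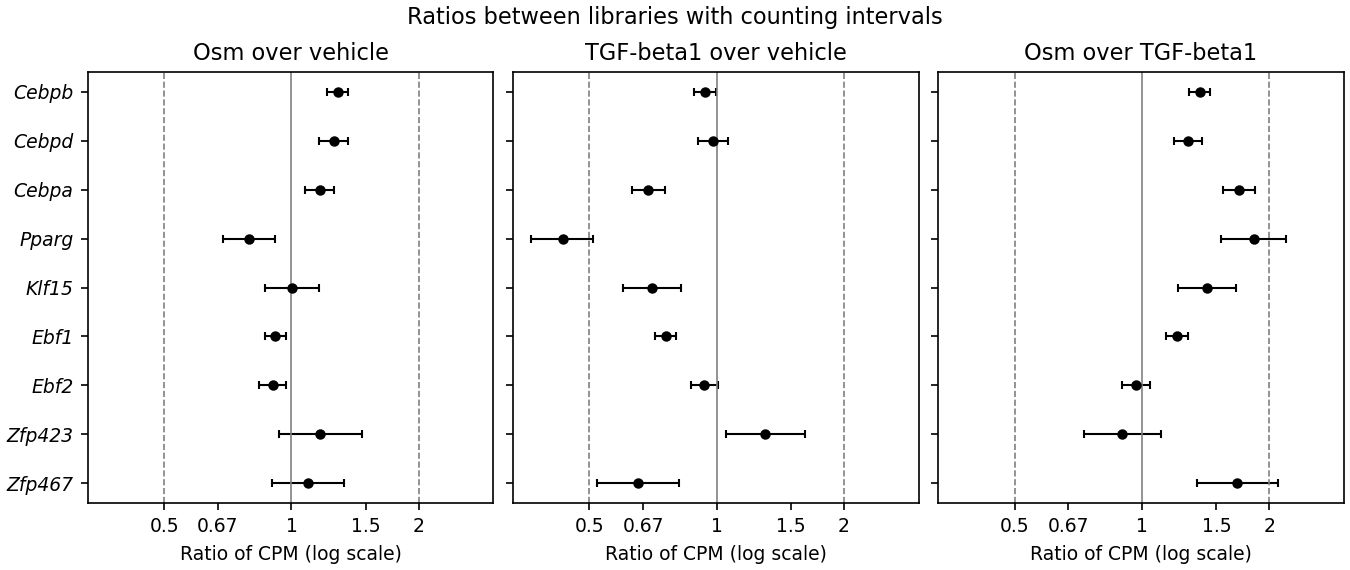
Ratio of CPM of each gene (log scale) in panels for Osm to vehicle (left), TGF-beta1 to vehicle (middle) and Osm to TGF-beta1 (right), with exact 95% intervals for counting error and dashed lines at 0.5 and 2. Pparg in the middle panel is the one point outside the dashed lines, and Zfp423 is the one gene to the right of 1 there.

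As a group, 1 of 9 members was at least 2-fold lower with TGF-beta1, where 4.79% of all tested genes were, and none was at least 2-fold higher, where 2.27% were. Of the 10782 genes at 5 CPM or more in any library, 306 were at least 2-fold lower and 124 at least 2-fold higher. At 1.5-fold, Pparg and Zfp467 were lower, where 9.53% of tested genes were, and none higher, where 6.01% were. Among the 952 transcription factor genes, 2.1% were at least 2-fold lower. The median log2 ratio of the members was -0.40, against 0.01 for all tested genes and -0.04 for the transcription factor genes. The members were chosen with earlier results of these data known, so such comparisons are not independent of the choice. The counting interval lay below a ratio of 1 for 6 members and above it for 1, where it lay below for 24.2% of all tested genes and above for 27.8%. An interval excludes 1 more readily for a gene with many reads. The tested genes were not matched to the members in read depth, for the intervals or at any threshold given here. At a lower threshold of 1.2-fold, chosen after the values were seen, 5 of 9 members were lower, where 17.7% of tested genes were, and 1 was higher, where 18% were.

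With Osm, none of 9 members was at least 2-fold higher or lower than vehicle, where 0.948% and 0.649% of tested genes were, and none passed 1.5-fold, where 2.1% and 1.66% did. The median log2 ratio was 0.13 for the members and 0.00 for all tested genes. The counting interval lay above a ratio of 1 for 3 members and below it for 3, where it lay above for 10.9% of all tested genes and below for 10.6%, again not matched in read depth. At 1.2-fold, Cebpb and Cebpd were higher, where 4.92% of tested genes were, and Pparg was lower, where 4.67% were. In the direct comparison of Osm with TGF-beta1, none of 9 was past 2-fold, where 5.07% of tested genes were higher and 2.42% lower with Osm, and the members had a median of 0.45 against -0.01. At 1.5-fold, Pparg, Cebpa and Zfp467 were higher with Osm, where 9.93% of tested genes were, and none lower, where 6.16% were. At 1.2-fold, 7 of 9 members were higher with Osm, where 18.5% of tested genes were, none was lower, where 17.4% were, and Ebf2 and Zfp423 had intervals that held 1. The comparisons share libraries and are not independent of each other.

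**Figure D4:**
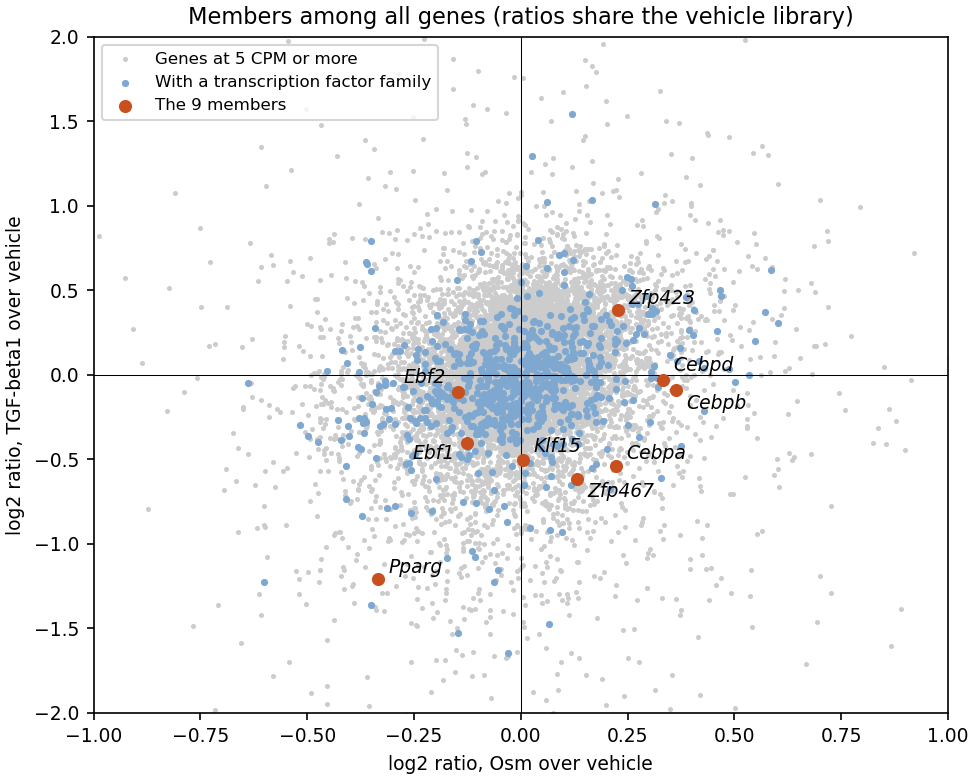
log2 ratio of TGF-beta1 over vehicle (vertical) against Osm over vehicle (horizontal) for genes at 5 CPM or more, with genes that have a transcription factor family in blue and the 9 members in orange and named; 87 of 10782 genes lie outside the axes. Both ratios share the vehicle library. Pparg is the lowest member, Cebpb and Cebpd are furthest to the right at a height near 0, and Zfp423 is the one member above 0.

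Genes around the members were described by 4 lists, also chosen with earlier results of these data known. Of the 26 adipocyte target genes, 15 were tested and the rest, among them Adipoq with 5, 5 and 0 reads, were below 1 CPM in every library. With TGF-beta1, 4 of 15 were at least 2-fold lower (4.79% of all tested genes) and none higher (2.27%), with a median log2 ratio of -0.62. With Osm none of 15 was at least 2-fold higher (0.948% of all tested genes) or lower (0.649%), and the median was 0.00. By direction alone, 13 of 15 lay below vehicle with TGF-beta1 and 2 above, and with Osm 7 lay below and 8 above. Of all 13712 tested genes, 6676 lay below vehicle with TGF-beta1 and 7035 above, and with Osm 6779 lay below and 6932 above. Angptl4 was 1.56-fold higher with Osm (1.40 to 1.74) and 1.21-fold higher with TGF-beta1 (1.08 to 1.35). Lpl, the lipoprotein lipase gene and a classical Pparg target, was at 1523, 1503 and 570.6 CPM, 2.67-fold lower with TGF-beta1 (2.61 to 2.73). Hsd11b1, which encodes the enzyme that reactivates glucocorticoids, was 2.34-fold lower (2.22 to 2.47) and the fatty acid transporter gene Cd36 2.21-fold lower (1.45 to 3.42). Cd36 was also 1.86-fold lower with Osm than with vehicle (1.24 to 2.83). Plin4, a lipid droplet protein gene, was 8.35-fold lower with TGF-beta1 (6.68 to 10.6), at 39.4, 31.5 and 4.72 CPM. Exons of its antisense neighbour Hdgfl2, at 43.1, 45.8 and 40.3 CPM, cover 0.294% of the exonic bases of Plin4. The desaturase gene Scd1, the most abundant of the list, was 1.74-fold lower with TGF-beta1 (1.73 to 1.76). Hsd11b1 and Cd36 were named after their values were seen, because they passed the rule, and Angptl4 because it lay above vehicle.

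Co-regulators that work with the members, 21 in number and all tested, had a median log2 ratio of -0.25 with TGF-beta1, 2 at least 2-fold higher (2.27% of all tested genes) and 2 lower (4.79%), all at low level; those other than Zbtb16 were named after their values were seen. Ppargc1a, the coactivator of Pparg in energy metabolism, was 4.01-fold lower with TGF-beta1 (2.10 to 8.29), at 0.651 CPM against 2.61 CPM, and Zbtb16 was 2.07-fold lower (1.44 to 3.02). Klf5, an early adipogenic factor, was 2.66-fold higher (1.69 to 4.31) and Prdm16, the brown fat regulator, 3.05-fold higher (1.74 to 5.63), from 0.924 to 2.82 CPM. Prdm16 was also 2.31-fold higher with Osm (1.27 to 4.37), the one co-regulator of 21 past 2-fold there, where 0.948% of all tested genes were at least 2-fold higher. Nr1h3, the liver X receptor alpha gene, was 1.68-fold lower with TGF-beta1 (1.46 to 1.94), and the abundant Srebf1 and Klf4 were 1.15-fold lower (1.11 to 1.19) and 1.24-fold higher (1.19 to 1.29). Srebf1 is overlapped on the opposite strand by Rai1, which was at 52.8 CPM against 365.6 CPM with vehicle.

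Of 31 genes that restrain fat cell formation, 29 were tested. With TGF-beta1 1 of 29 was at least 2-fold higher (2.27% of all tested genes) and none lower (4.79%). The higher gene was Wnt5a, a Wnt ligand, which went from 10.8 to 22.0 CPM (2.04-fold, 1.72 to 2.43). The list's median log2 ratio was 0.02. Hes1, a Notch target repressor, was 1.73-fold higher (1.41 to 2.12), and the corepressor gene Ncor1 was 1.03-fold higher (0.985 to 1.08). With Osm none of the 29 was at least 2-fold higher (0.948% of all tested genes) or lower (0.649%). Of 7 paralogs of the members, 6 were tested and Cebpe had no read. Cebpg was at 75.1, 76.5 and 90.2 CPM, 1.201-fold higher with TGF-beta1 (1.12 to 1.29), and Cebpz was 1.22-fold higher (1.11 to 1.34). Ebf3 was 1.28-fold higher (1.03 to 1.61), whereas Ebf4, the one paralog of 6 past 2-fold (4.79% of all tested genes were at least 2-fold lower) and named for that, was 2.45-fold lower (1.57 to 3.92) at 3.86 CPM with vehicle.

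**Figure D5:**
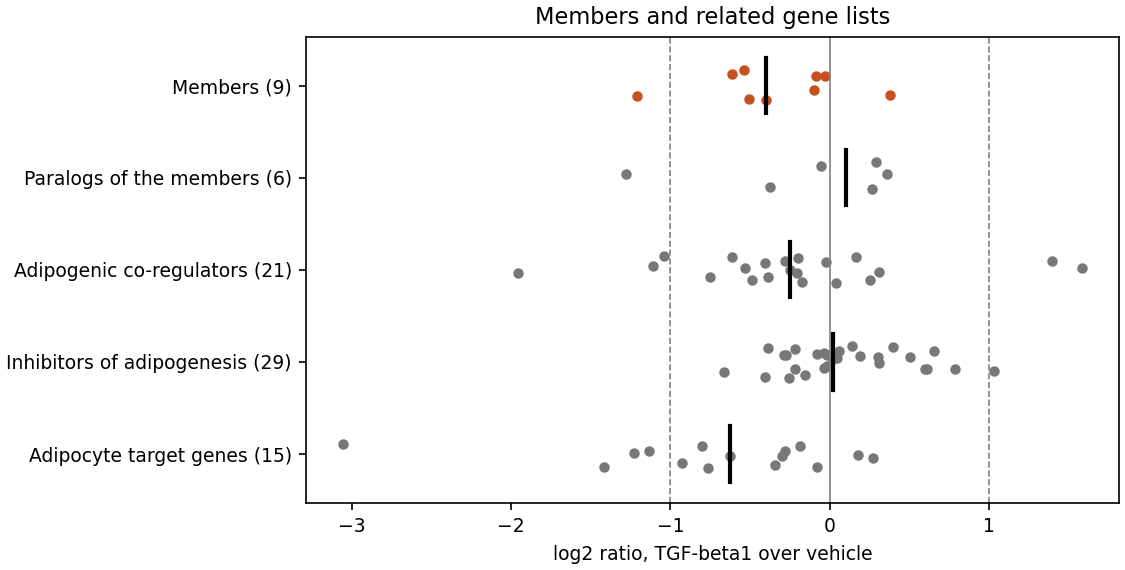
log2 ratio of TGF-beta1 over vehicle for the tested genes of each list, 1 point per gene with random vertical spread, the number of genes in brackets, black bars at the medians and dashed lines at 2-fold. The medians are -0.40 for the members, 0.10 for their paralogs, -0.25 for co-regulators, 0.02 for inhibitors and -0.62 for adipocyte target genes.

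The genes with a pattern nearest to that of Pparg were sought among protein-coding genes with 10 CPM or more in any library, by Euclidean distance over the log2 ratios of Osm and of TGF-beta1 to vehicle, which come from only 3 libraries. The nearest 5 were Fbxo32, a muscle atrophy ubiquitin ligase gene (distance 0.010), Col6a5 (0.060), Smpdl3a (0.066), Gstm1 (0.075) and Rnf144a (0.076). Fbxo32 was at 13.0, 10.4 and 5.59 CPM, beside 25.5, 20.2 and 11.0 CPM for Pparg. Gstm1 shares 18.9% of its 50-base windows with other genes and is uncertain. None of the 5 has a transcription factor family in the authors' deposited table.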

How the data were processed

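RNA was profiled by bulk sequencing in 3 libraries, grouped by their titles. Messenger RNA was bound to oligo-dT beads, per the labels' protocols, which do not say whether these libraries kept strand. The authors deposited a read count (whole numbers) and an FPKM value for every gene and library. Software named in the submitters' processing notes, without versions, is CASAVA, HISAT2, HISAT and TopHat2, and the build is mm39. The sources used here give neither the counter nor the annotation. The deposited FPKM equal the counts per gene length over a library size scaled by DESeq2 size factors and served to compare levels between genes and as an alternative.

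Counts were scaled to CPM with TMM factors (edgeR 4.0.16, R 4.3.3). Genes with at least 1 CPM in any library were tested for a 2-fold difference: a log2 ratio of at least 1 in size, with a prior count of 0.5 in proportion to library size, and an exact 95% conditional binomial (Clopper-Pearson) interval of the count ratio that excludes 1. Printed folds are ratios of CPM. Protein identities were planned but not computed. There was 1 library per group, so neither a model nor a p-value is reported. PCR repeats cannot be told apart, so intervals may be too narrow. Where a symbol was listed more than once (Ddit3), the row with the higher mean was used. Promoter windows came from RefSeq (GRCm38.p6), and exon overlap and shared 50-base windows from GENCODE M21 on the same build. Positions of genes are those of the deposited table. Python 3.11.15, numpy 2.4.6, scipy 1.17.1, pandas 2.3.3, matplotlib 3.10.9 and DESeq2 1.42.0 were used.

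The members and lists were chosen with earlier results of these data known. Named genes were all members and, from each list, the 2 genes with the TGF-beta1 over vehicle log2 ratio largest in size among those at 5 CPM or more and the 2 with the highest mean CPM, plus the 5 genes nearest in pattern to the member with the largest such ratio. A few genes that these rules or lists hold are not reported here. Alternatives were other scalings (DESeq2, count totals, upper quartile), the deposited FPKM with a pseudocount of 0.1, a prior count of 2, thresholds of 1.5-fold and 1.2-fold, and other filters.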

Additional observations from a re-analysis of the deposited data

How the results depend on the processing

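Every 2-fold count of members, 0 with Osm over vehicle, 1 with TGF-beta1 over vehicle and 0 with Osm over TGF-beta1, was the same with DESeq2 size factors, count totals, upper-quartile factors, the deposited FPKM and a prior count of 2. At 1.5-fold the counts were 0, 2 and 3, and at 1.2-fold, a threshold added after the values were seen, 3, 6 and 7. The share of all genes at least 2-fold different, in either direction, was 1.6%, 7.06% and 7.49% for the same comparisons and 0.213%, 3.99% and 4.18% at 5 CPM or more in any library, where genes with few reads are left out. Over 135 alternative values of the members' log2 ratios the largest move was 0.04, and the sign turned in 2, both for Klf15 with Osm over vehicle (-0.0014 with DESeq2 size factors and -0.0013 with FPKM). No paired analysis was possible because each group has 1 library, which also left no library to leave out. Depth limits Zfp423 and Zfp467 most, with 136 to 215 reads per library.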

Other observations

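Among the 608 transcription factor genes that reached 10 CPM in any library, 8 were at least 2-fold lower with TGF-beta1 than with vehicle and 2 at least 2-fold higher, and Pparg had the 6th lowest ratio. Those lower included Id3, Atoh8, Id4, Hlf, Id1 and Etv1, and the 2 higher were Etv4 and Foxs1. They are named because they passed the rule, after their values were seen. Id1, Id3 and Id4 encode inhibitors of basic helix-loop-helix factors that are known targets of BMP signalling. Id3 was at 51.6, 50.5 and 16.4 CPM, Id1 at 16.7, 14.8 and 7.87 CPM and Id4 at 10.2, 8.01 and 3.96 CPM. Foxs1, a forkhead gene, was at 6.30, 6.86 and 18.4 CPM. Of all these genes, Pparg was the only one among the 9 adipogenic factors.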
